A study of Mus musculus with 20 samples.

Results

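The measurements below concern 9 genes through which the kidney takes up sodium under the control of aldosterone, picked by gene symbol out of the 55471 genes in the count table. They were the subunits of the epithelial sodium channel ENaC (Scnn1a, Scnn1b and Scnn1g), the kinase gene Sgk1, the ubiquitin ligase gene Nedd4l, the protease gene Prss8, the sodium pump subunit gene Atp1b1, the mineralocorticoid receptor gene Nr3c2 and the steroid-inactivating enzyme gene Hsd11b2. All 9 were found by symbol and passed the filter on low counts in every comparison.

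RNA from the whole kidney of 20 female mice aged 2 months was sequenced in a pair of experiments. In the first, 4 actin-rtTA+ control mice and 3 i-TERTci mice (genotype actin-rtTA+;tetOp-TERTci+) of mixed background received doxycycline for about 15 days. Both groups received it at 2 mg/ml in drinking water with sucrose. Kidneys were taken at reversal day 8, that is 8 days after the drug was withdrawn. TERTci is a catalytically inactive form of telomerase reverse transcriptase. The actin promoter drives the doxycycline-dependent activator in all tissues, so the transgene was not limited to the kidney, and both transgenes were heterozygous. In the second, TERT KO/KO and TERT WT/WT littermates on a Balb/c background (10 generations of backcross) received a single intravenous injection of Adriamycin (ADR, doxorubicin, 12 mg/kg), which injures podocytes, or of saline, and kidneys were taken 18 days later. Saline was given to 4 TERT WT/WT and 3 TERT KO/KO mice, and ADR to 3 of each genotype. The knockout was of the germline and so not limited to the kidney. The experiments differed in strain background and treatment, so a difference in level between them cannot be told apart from these.

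In the kidney, ENaC is the entry step for sodium in the last segments of the nephron, the late distal convoluted tubule, the connecting tubule and the principal cells of the collecting duct, and the Na,K-ATPase of the basolateral membrane is the exit step. Aldosterone binds the mineralocorticoid receptor, which raises transcription of a small set of genes including Sgk1. The SGK1 kinase phosphorylates the ubiquitin ligase NEDD4L, which otherwise removes ENaC from the cell surface, and proteases such as prostasin (Prss8) raise the activity of the channel by cleavage. HSD11B2 inactivates glucocorticoids in these cells and so keeps them from the mineralocorticoid receptor, which binds both hormones. Sodium retention through ENaC is a textbook feature of the nephrotic state, in which protein leaks into the urine.

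Among the 9 genes, the sequence upstream of Sgk1 is shown because Sgk1 is the member whose level varied most between libraries. A further reason is that corticosteroid receptors can bind DNA at a short palindrome, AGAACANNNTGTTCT. Only exact matches to it were sought, so sites that differ from it in a letter were not counted. RefSeq promoter windows (GRCm38.p6, 250 bases before to 50 bases after each start) matched 5 of the 9 genes with 10 windows, of which 6 belonged to Sgk1. The palindrome, which reads the same on both strands, stood in 1 of these 10 windows and in 3 of all 32851 windows (0.00913%). The match was in the window of an Sgk1 start at position 21993890 of chromosome 10, began at position −189 relative to it, and lay 965 bases before the last Sgk1 start of the table. The stretch before that start, on the + strand (chr10:21993640-21993889), carries the palindrome in capitals. The stretch before the last start (chr10:21994416-21994665), 776 bases further on, carries the TATA box letters TATAAA in capitals, beginning at position −11 relative to that start. The other TATAAA in the Sgk1 windows began at position −28 relative to the start at position 21992223, whose sequence is not shown. Whether either match serves as a TATA box was not tested.
Sgk1 start with the palindrome: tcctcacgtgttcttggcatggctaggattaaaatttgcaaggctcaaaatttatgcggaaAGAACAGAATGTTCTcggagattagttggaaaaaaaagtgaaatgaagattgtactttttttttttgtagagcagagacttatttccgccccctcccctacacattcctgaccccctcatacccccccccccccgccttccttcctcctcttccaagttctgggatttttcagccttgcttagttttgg
Sgk1 last start: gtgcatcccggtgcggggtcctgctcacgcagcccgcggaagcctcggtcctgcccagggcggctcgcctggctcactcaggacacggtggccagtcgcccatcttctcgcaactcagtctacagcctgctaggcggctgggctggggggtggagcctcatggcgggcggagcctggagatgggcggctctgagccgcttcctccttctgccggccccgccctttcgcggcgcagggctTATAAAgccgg

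Shorter motifs were common. The 6-letter arm of the palindrome, AGAACA, which therefore also matches within the palindrome, was present in 3 of the 10 windows and in 6233 of all 32851, TATAAA in 2 of 10 and in 13.6%, and the GC box GGGCGG in 6 of 10 and in 35.7% (all searched on both strands). The windows of Scnn1b, Scnn1g, Atp1b1 and Nr3c2 held neither AGAACA nor TATAAA and each held at least 1 GC box.

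On mm10 the members lie at chr6:125320659-125344943 (Scnn1a, + strand), chr7:121865038-121918514 (Scnn1b, +), chr7:121734479-121768475 (Scnn1g, +), chr10:21882184-21999903 (Sgk1, +), chr7:127925716-127930104 (Prss8, −), chr1:164437109-164458355 (Atp1b1, −), chr8:76899442-77245012 (Nr3c2, +) and chr8:105518755-105523988 (Hsd11b2, +), with Nedd4l on chromosome 18. Scnn1b and Scnn1g are neighbours. Exons of 4 members overlap exons of a gene on the other strand, Atp1b1 with Nme7 over 575 bases, Nedd4l with A330084C13Rik over 277, Nr3c2 with Gm10649 over 247 and Prss8 with Kat8 over 122. Whether reads were assigned by strand is not given in the sources used here, so reads within those stretches cannot be assigned to either gene with certainty.

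The 20 libraries held 39323498 to 48399322 counts each. Levels are given as CPM, the counts of a gene scaled to a common library total after TMM normalisation. The labels name each replicate as a numbered mouse and say no more of it, so p values rest on the spread between these mice. A library of the TERT KO/KO ADR group, labelled replicate 2, was unlike the rest. Its 8 hepatocyte markers summed to 300645 CPM against at most 406 in any other library, and its 8 principal cell markers to 3.70 CPM against 583 to 1273. It is left out of group means and tests, which leaves 19 libraries and 2 in that group. Its values are given separately, as CPM of its own total without TMM normalisation. In the other 19 libraries none of the 8 principal cell markers (Aqp2, Aqp3, Aqp4, Avpr2, Fxyd4, Gata3, Elf5 and Hoxb7) was at 0. Tert itself, the targeted gene, was at 2.24 to 3.56 CPM in actin-rtTA+ mice and at 17.9, 28.4 and 4.31 CPM in the i-TERTci mice. It was at 3.16 to 6.36 CPM in TERT WT/WT and at 1.41 to 4.41 CPM in the used TERT KO/KO libraries, and at 0 in the left-out library. The counts are of the whole gene, and which part of it the reads came from was not tested.

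After ADR in TERT KO/KO mice, Sgk1 rose and Hsd11b2 fell relative to saline, 2 of the 9 members, where 5.26% of all 19023 genes tested passed (edgeR's quasi-likelihood F test, Benjamini-Hochberg adjusted p under 0.05). After ADR in TERT WT/WT mice no member passed, where 27.1% of all genes did (7785 of 19023 genes had an unadjusted p under 0.05). Prss8 and Nr3c2 came nearest, and DESeq2 called 1 member, Prss8. In the i-TERTci comparison no member passed either, where 1 of 17745 genes did (0.00564%), although 3972 genes had an unadjusted p under 0.05 and DESeq2 called 1990 genes and no member. Comparing the genotypes directly, Sgk1 was higher in TERT KO/KO than in TERT WT/WT mice after ADR, 1 of 9 members against 0.0736% of genes, and none passed after saline, where 0.00526% of genes did (1672 genes had an unadjusted p under 0.05, and DESeq2 called 21 genes and no member).

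**Figure D1:**
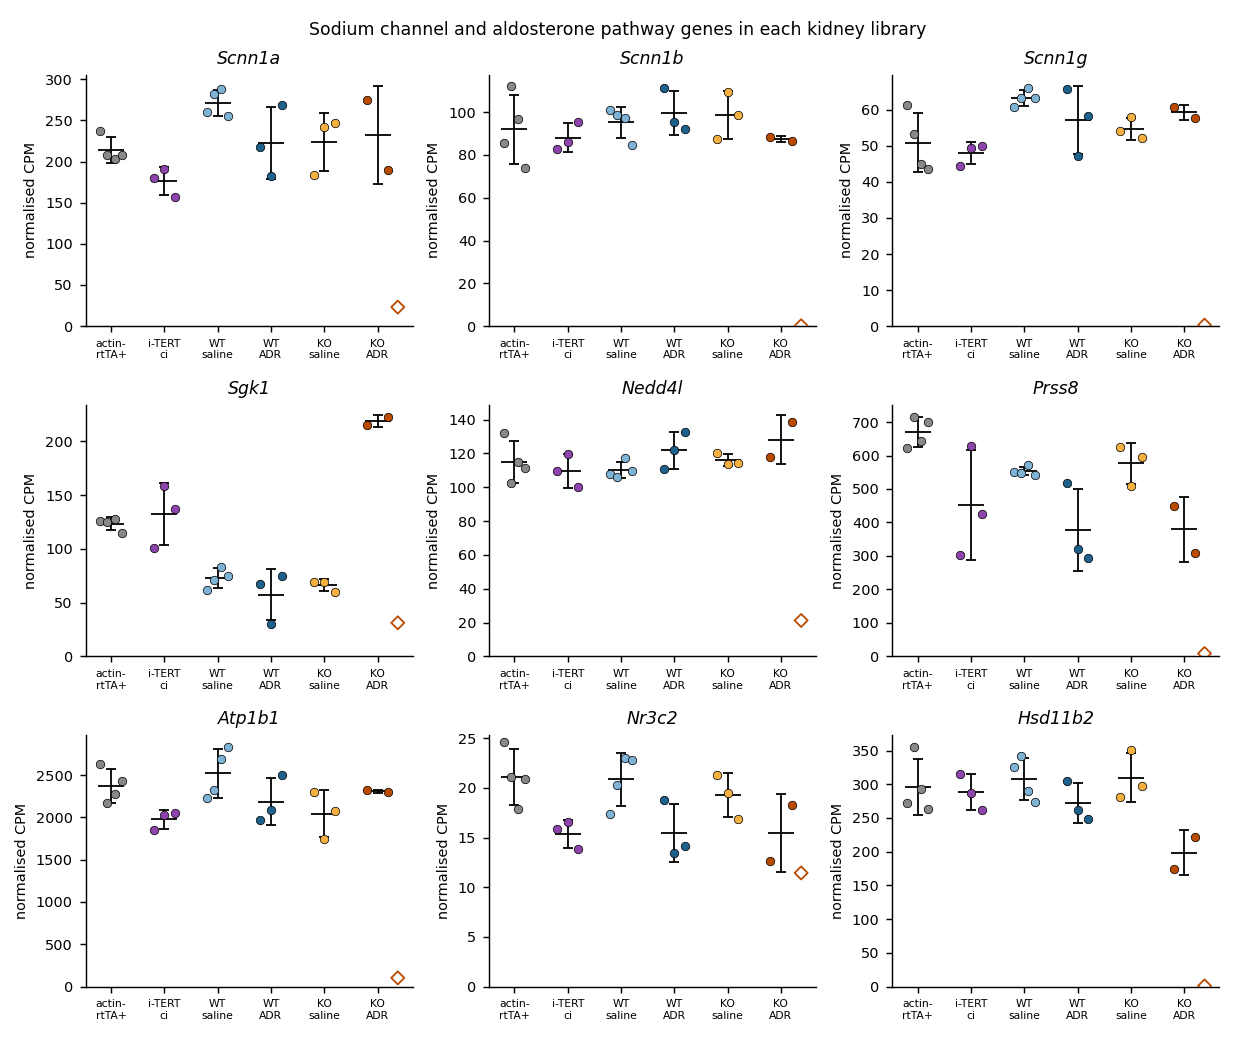
TMM-normalised level in CPM (vertical axis, from 0) of each of the 9 genes in each library, by group (horizontal axis). Filled points are libraries and bars the mean ± SD. The open diamond is the left-out library, scaled to its own total without TMM normalisation and not in the mean. Sgk1 in the 2 used TERT KO/KO ADR libraries (215 and 223 CPM) lies above every other library, and Hsd11b2 there (175 and 222 CPM) below every other used library.

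Scnn1a encodes the alpha subunit of ENaC, which is needed for the channel to reach the membrane. Its level was 238, 208, 203 and 208 CPM in the actin-rtTA+ libraries and 180, 191 and 157 CPM in the i-TERTci libraries. In the ADR experiment it was 261, 282, 288 and 255 CPM in TERT WT/WT saline and 217, 182 and 268 CPM in TERT WT/WT ADR libraries. The TERT KO/KO libraries had 184, 242 and 246 CPM after saline and 275 and 190.1 CPM after ADR, with 23.1 CPM in the left-out library. All i-TERTci libraries lay under all actin-rtTA+ libraries, whereas the ADR groups overlapped their saline groups. The fitted log2 fold change was −0.27 ± 0.14 (SE, adjusted p = 0.287) in i-TERTci against actin-rtTA+ mice, −0.29 ± 0.17 (adjusted p = 0.217) after ADR in TERT WT/WT and 0.06 ± 0.20 (adjusted p = 0.880) after ADR in TERT KO/KO mice, so Scnn1a passed in none. After saline the TERT KO/KO libraries all lay under the TERT WT/WT libraries, with a log2 difference of −0.28 ± 0.17 (adjusted p = 0.606). Scnn1a and Scnn1g were the 2 of 9 members without overlap there, as were 12.9% of all genes.

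Scnn1b encodes the beta subunit. It was at 85.6, 112, 96.6 and 74.0 CPM in actin-rtTA+ and at 82.7, 86.0 and 95.5 CPM in i-TERTci libraries. After saline it was at 101, 98.5, 97.4 and 84.6 CPM in TERT WT/WT and at 87.3, 109.6 and 98.9 CPM in TERT KO/KO mice, and after ADR at 111, 95.5 and 92.1 CPM and at 88.5 and 86.3 CPM. The lowest and highest of the 19 libraries differed by 1.51-fold, and no treatment separated from its control. The log2 fold changes were −0.05 ± 0.16 in the i-TERTci comparison (adjusted p = 0.878), 0.06 ± 0.11 for ADR in TERT WT/WT (adjusted p = 0.726) and −0.17 ± 0.13 for ADR in TERT KO/KO mice (adjusted p = 0.457).

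Scnn1g, the gamma subunit gene, was the least abundant of the 3 per length. Its level was 61.4, 53.2, 45.0 and 43.7 CPM in actin-rtTA+ and 44.5, 49.4 and 49.99 CPM in i-TERTci libraries. TERT WT/WT mice had 60.7, 63.2, 66.1 and 63.4 CPM after saline and 65.8, 47.3 and 58.3 CPM after ADR, and TERT KO/KO mice had 54.1, 57.9 and 52.1 CPM after saline and 60.8 and 57.8 CPM after ADR. After saline, each TERT KO/KO library lay under each TERT WT/WT library (log2 difference −0.22 ± 0.11, adjusted p = 0.578). Neither ADR (−0.15 ± 0.11, adjusted p = 0.302 in TERT WT/WT and 0.12 ± 0.13, adjusted p = 0.587 in TERT KO/KO) nor TERTci (−0.07 ± 0.14, adjusted p = 0.808) gave a called change.

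The 3 subunits kept to a narrow range of proportions. Per kilobase of exon, Scnn1a made up 49.9% ± 3.94 (SD, n = 19) of the summed level, Scnn1b 33.0% ± 3.73 and Scnn1g 17.1% ± 1.34, and the alpha to gamma ratio was 2.94 ± 0.364. The share of Scnn1a was lowest in i-TERTci replicate 3 (41.8%) and highest in TERT KO/KO ADR replicate 1 (55.2%). The summed level was 123 ± 6.13 CPM per kilobase in TERT WT/WT saline (n = 4), 111 ± 12.8 in TERT WT/WT ADR (n = 3), 109.9 ± 12.6 in TERT KO/KO mice after saline (n = 3) and 109 ± 15.8 after ADR (n = 2). In the other experiment it was 104 ± 8.47 in actin-rtTA+ (n = 4) and 92.1 ± 3.02 in i-TERTci mice (n = 3). In the left-out library Scnn1b and Scnn1g were at 0.188 and 0.293 CPM.

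**Figure D2:**
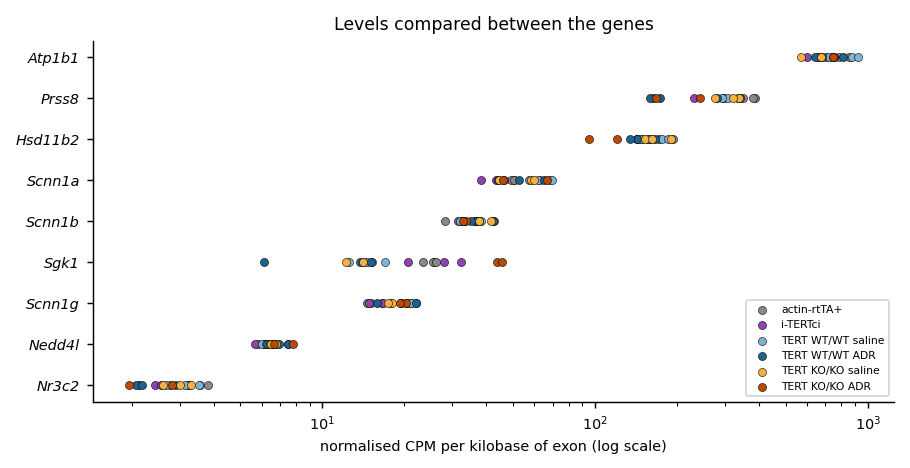
TMM-normalised level in CPM per kilobase of exon (horizontal axis, log scale) of the 9 genes (rows) in the 19 libraries used, coloured by group. Mean levels run from 2.84 for Nr3c2 to 731 for Atp1b1, and the points of Sgk1 spread over 7.42-fold, more widely than those of any other gene shown.

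Sgk1 encodes the serum- and glucocorticoid-regulated kinase that spares ENaC from ubiquitination, and it is induced directly by both corticosteroid receptors. Its level was 126, 125, 128 and 115 CPM in actin-rtTA+ and 101, 158 and 138 CPM in i-TERTci libraries. With TERT WT/WT it was 61.5, 71.4, 83.4 and 74.9 CPM after saline and 67.3, 30.0 and 74.3 CPM after ADR. With TERT KO/KO it was 69.3, 69.5 and 59.8 CPM after saline and 215 and 223 CPM after ADR. Both used TERT KO/KO ADR libraries thus lay above every other library, at a group mean of 219 ± 5.45 CPM (SD, n = 2) against 66.2 ± 5.52 CPM after saline (n = 3).

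The rise of Sgk1 after ADR in TERT KO/KO mice was 3.32-fold (log2 1.73 ± 0.28 SE, adjusted p = 0.00668). It passed the threshold in 17 of 18 alternative settings, in which the log2 fold change ran from 1.39 to 1.77. The exception was the fit that kept the left-out library, in which Sgk1 stood at 31.2 CPM (1.39, adjusted p = 0.0775). The same treatment gave in TERT WT/WT mice −0.35 ± 0.24 (adjusted p = 0.283), with replicate 2 the lowest library of the series. In the i-TERTci comparison the log2 fold change was 0.11 ± 0.16 (adjusted p = 0.719).

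Between the genotypes, Sgk1 and 2 other members, Scnn1b and Hsd11b2, did not overlap after ADR (3 of 9, against 16.7% of all genes). Sgk1 was 3.84-fold higher in TERT KO/KO than in TERT WT/WT mice after ADR (log2 1.94 ± 0.28, adjusted p = 0.0362) and did not pass after saline (−0.14 ± 0.24, adjusted p = 0.858). The call after ADR was made in 7 of 18 alternative settings. It was lost when only these 2 groups were fitted (adjusted p = 0.999), with the left-out library kept (0.272), with the replicate number as a block (0.181), and without TERT KO/KO ADR replicate 1 (0.306), any TERT KO/KO saline library (0.0551 to 0.0666) or any TERT WT/WT saline library (0.0608 to 0.0816), while the log2 difference stayed between 1.60 and 2.18. The test of the difference between the genotypes' responses to ADR gave 2.08 ± 0.37 on the log2 scale, with an unadjusted p of 8.71e-05 and an adjusted p of 0.118. edgeR called 0 of 19023 genes in that test (0%), with 2288 at an unadjusted p under 0.05, and DESeq2 called 131 genes, Sgk1 among them (adjusted p = 0.000104). Sgk1 was also called by edgeR without TERT WT/WT ADR replicate 1 (adjusted p = 0.0182), replicate 2 (0.0302) or replicate 3 (0.033).

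**Figure D3:**
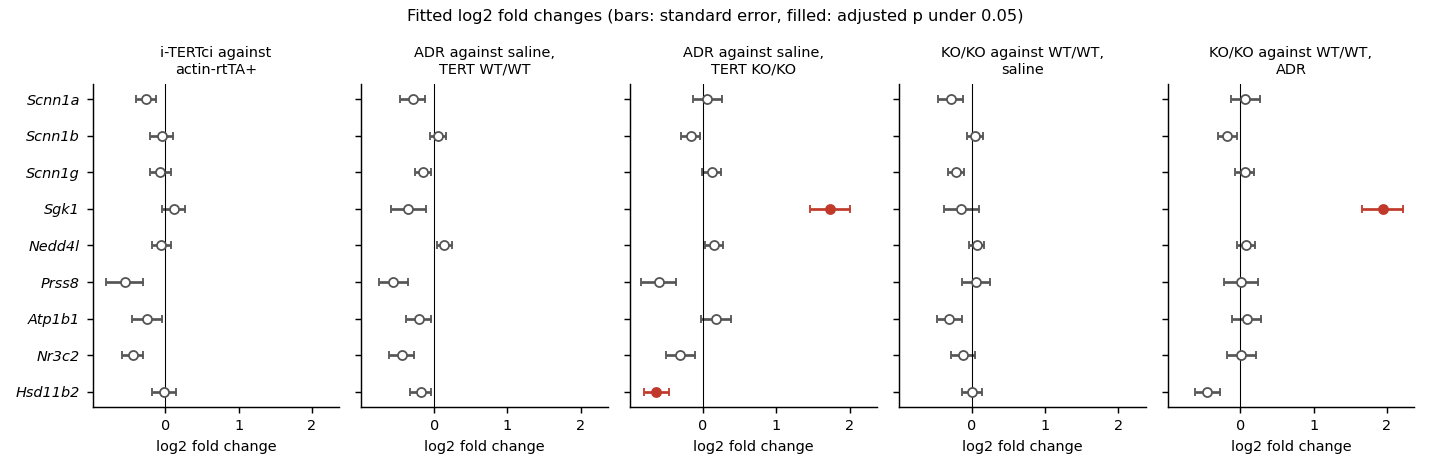
Fitted log2 fold changes (horizontal axis) of the 9 genes (rows) in 5 comparisons (panels); points are estimates, bars ± 1 standard error, and filled points have an adjusted p under 0.05. The filled points are Sgk1 (1.73) and Hsd11b2 (−0.64) after ADR in TERT KO/KO mice and Sgk1 in TERT KO/KO against TERT WT/WT mice after ADR (1.94).

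Nedd4l encodes the ubiquitin ligase that SGK1 phosphorylates. Its level was 132, 102, 115 and 111 CPM in actin-rtTA+, 109, 119.9 and 99.9 CPM in i-TERTci, 108, 106, 117 and 109.6 CPM in TERT WT/WT saline, 111, 122 and 133 CPM in TERT WT/WT ADR, 120.0, 114 and 114 CPM in TERT KO/KO libraries after saline and 118 and 138 CPM after ADR. It was the steadiest member, with 1.39-fold between the lowest and the highest of the 19 libraries. The largest of its treatment effects was 0.15 ± 0.12 on the log2 scale, after ADR in TERT KO/KO mice (adjusted p = 0.479). ADR in TERT WT/WT gave 0.14 ± 0.10 (adjusted p = 0.329).

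Prss8 encodes prostasin, a membrane-anchored serine protease of the distal nephron that is also made in other tubule segments. It was at 621, 716, 644 and 701 CPM in actin-rtTA+ and at 302, 628 and 427 CPM in i-TERTci libraries. TERT WT/WT mice had 552, 547, 570.2 and 542 CPM after saline and 517, 321 and 294 CPM after ADR, and TERT KO/KO mice had 627, 509 and 596 CPM after saline and 448 and 309.6 CPM after ADR. All ADR libraries lay under all saline libraries of the same genotype, and i-TERTci replicate 2 alone among the i-TERTci libraries lay within the actin-rtTA+ range. Libraries of the compared groups did not overlap for 1 of 9 members after ADR in TERT WT/WT (33.5% of all genes), for 3 of 9 after ADR in TERT KO/KO (42.3%) and for 3 of 9 in the i-TERTci comparison (17.3%, the members being Scnn1a, Atp1b1 and Nr3c2).

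The log2 fold change of Prss8 was −0.56 ± 0.20 after ADR in TERT WT/WT (adjusted p = 0.0531), −0.60 ± 0.24 after ADR in TERT KO/KO (adjusted p = 0.145) and −0.56 ± 0.25 in i-TERTci mice (adjusted p = 0.235), none of which passed. For TERT WT/WT, 6 of 18 alternatives called it, DESeq2 among them (adjusted p = 0.0244), and the largest change came without TERT WT/WT ADR replicate 1 (−0.85, adjusted p = 0.000775). Without that library the change in TERT KO/KO mice also passed (−0.60, adjusted p = 0.0201), and without i-TERTci replicate 2 the change in i-TERTci mice did (−0.87, adjusted p = 0.0186). Markers of injured tubules (7 genes, Havcr1 and Lcn2 among them, none at 0 in any of the 19 libraries) summed to 1512 to 1939 CPM in all saline and actin-rtTA+ libraries. They summed to 1806 CPM in i-TERTci replicate 2 and to 16571 and 11873 CPM in replicates 1 and 3, where Prss8 was lower. They summed to 4405 CPM in TERT WT/WT ADR replicate 1 and to 22075 and 18590 CPM in replicates 2 and 3, and to 7254 and 12831 CPM in TERT KO/KO ADR replicates 1 and 3. The 9 proximal tubule markers ran the other way, at 9258 CPM in TERT WT/WT ADR replicate 1 and 2744 and 2319 CPM in replicates 2 and 3, whereas the saline libraries of that genotype ranged from 10791 to 12885 CPM. The part of these markers in the level of Prss8 was not tested, and in whole-kidney RNA fewer cells of a type and less RNA per cell cannot be told apart.

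Atp1b1 encodes the beta subunit of the Na,K-ATPase and was the most abundant member per length. It was at 2633, 2168, 2273 and 2425 CPM in actin-rtTA+ and at 1852, 2027 and 2054 CPM in i-TERTci libraries, without overlap. TERT WT/WT mice had 2227, 2326, 2689.9 and 2838 CPM after saline and 1968, 2089.7 and 2497 CPM after ADR, and TERT KO/KO mice had 2303, 1749.5 and 2079 CPM after saline and 2319 and 2296 CPM after ADR. No difference passed the test, at −0.25 ± 0.21 for TERTci (adjusted p = 0.506), −0.21 ± 0.17 for ADR in TERT WT/WT (adjusted p = 0.375) and 0.18 ± 0.20 for ADR in TERT KO/KO mice (adjusted p = 0.613), all on the log2 scale.

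Nr3c2, the mineralocorticoid receptor gene, was the least abundant member. It was at 24.7, 21.1, 17.8 and 20.9 CPM in actin-rtTA+ and at 15.8, 16.6 and 13.8 CPM in i-TERTci libraries, again without overlap. TERT WT/WT mice had 17.4, 20.3, 23.0 and 22.9 CPM after saline and 18.8, 13.4 and 14.1 CPM after ADR, and TERT KO/KO mice had 21.3, 19.5 and 16.9 CPM after saline and 12.7 and 18.3 CPM after ADR. The fitted log2 fold change was −0.44 ± 0.14 for TERTci (adjusted p = 0.127), −0.44 ± 0.17 for ADR in TERT WT/WT (adjusted p = 0.0654) and −0.31 ± 0.20 for ADR in TERT KO/KO mice (adjusted p = 0.357). Alternatives called the change in TERT WT/WT in 5 of 18 settings, with an adjusted p of 0.0121 without TERT WT/WT ADR replicate 1 and 0.256 without replicate 2.

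Hsd11b2, whose enzyme guards the mineralocorticoid receptor, was at 272, 355, 292 and 263 CPM in actin-rtTA+ and at 315, 287 and 262 CPM in i-TERTci libraries. It was at 325, 341, 290.0 and 274 CPM in TERT WT/WT saline and 305, 262 and 248 CPM in TERT WT/WT ADR libraries. TERT KO/KO mice had 282, 351 and 297 CPM after saline and 175 and 222 CPM after ADR, below all 17 other libraries used. After ADR it stood at 0.643 of the saline level in TERT KO/KO mice, a fall that passed (log2 −0.64 ± 0.17, adjusted p = 0.0495). That call lay at the threshold. Of 18 alternatives 4 kept it, with adjusted p values from 0.00325 with DESeq2 to 0.426 with the left-out library (0.941 CPM) included, and it was lost on leaving out any library of the TERT KO/KO groups (0.0788 to 0.181), any TERT WT/WT saline library (0.0652 to 0.0739) or TERT WT/WT ADR replicate 2 (0.0603). It was also lost with no filter on low counts (0.0514), with only the compared groups (0.0614) and with the replicate number as a block (0.0959). The log2 fold change in TERT WT/WT mice was −0.18 ± 0.14 (adjusted p = 0.344) and in i-TERTci mice −0.02 ± 0.16 (adjusted p = 0.948), and the difference between the genotypes' responses was −0.45 ± 0.22 (adjusted p = 0.428).

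In the TERT KO/KO mice, the 8 markers of connecting and distal convoluted tubule cells summed to 3179 and 3469.8 CPM after ADR (replicates 1 and 3) and to 4887, 5754 and 5757 CPM after saline, without overlap (list median −0.59), and 0 of 8 passed. The 8 principal cell markers summed to 1077 and 583 CPM after ADR and to 987 to 1135 CPM after saline, with overlap (list median −0.36), and 0 of 8 passed in edgeR's test. Set against the mean log2 level of the principal cell markers, which was 0.46 lower after ADR, the log2 difference of Sgk1 was 2.19 and that of Hsd11b2 −0.19, as descriptions without a test. Injured tubule markers were higher in both ADR libraries, with 4 of 7 called, and macrophage markers were at 198 and 606 CPM against 171 to 210 CPM, with 3 of 8 called. The part of these cells in the changes of Sgk1 and Hsd11b2 was not tested.

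Ranked by group mean, few neighbouring groups were apart. For Sgk1 the TERT KO/KO ADR mice came first, then i-TERTci, then actin-rtTA+, then TERT WT/WT and TERT KO/KO after saline, then TERT WT/WT after ADR. Only the gaps below TERT KO/KO ADR and below actin-rtTA+ were free of overlap. For Hsd11b2 the TERT KO/KO ADR group lay apart below TERT WT/WT ADR, and for Scnn1a the i-TERTci group lay apart below actin-rtTA+. All other neighbouring groups overlapped, for every member.

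Effects of TERTci and of ADR in TERT WT/WT mice were also compared directly. Their difference was largest for Sgk1 (0.45 ± 0.31, adjusted p = 0.803) and Nedd4l (−0.21 ± 0.15, adjusted p = 0.803), and no member passed, where 1 of 19783 genes did (0.00505%), 1417 had an unadjusted p under 0.05 and DESeq2 called 59 genes and none of the members. For Nr3c2 and Prss8 the differences were −0.02 ± 0.22 and −0.02 ± 0.31.

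The other genes of the pathway were described by lists. Called genes beyond the 3 of smallest p in a list (Tmprss4, Spint1, Sgk2, Ndfip2, Kcne1 and Errfi1) are named because the counts are small and were chosen after their values were seen. Each list is set beside the median over all genes tested, which was 0.0074 on the log2 scale for ADR in TERT WT/WT and 0.0065 for ADR in TERT KO/KO mice. Counts of called list genes stand beside 2883 higher and 2281 lower of 19023 genes for ADR in TERT WT/WT (27.1% in all) and 729 higher and 272 lower for ADR in TERT KO/KO mice (5.26%). Among 12 genes for proteases that cleave ENaC, their inhibitors and the urokinase receptor, 5 rose and none fell (median log2 fold change 0.32). The 5 were Serpine2, Plaur, Spint2, Tmprss4 and Spint1. Serpine2, which encodes an inhibitor of serine proteases including prostasin, rose from 17.3 ± 0.826 to 31.4 ± 4.58 CPM (0.86 ± 0.12 SE, adjusted p = 0.00132). Plaur, the urokinase receptor gene, rose from 6.20 ± 0.813 to 23.3 ± 11.6 CPM (1.91 ± 0.29, adjusted p = 0.0017), and Spint2, a Kunitz-type inhibitor gene, from 319 ± 32.4 to 499 ± 86.4 CPM (0.64 ± 0.14, adjusted p = 0.00791). Under TERT KO/KO, 2 of the 12 rose, Plaur and Serpine2 (list median 0.20). The calls of Serpine2, Plaur and Spint2 in TERT WT/WT mice were each kept in 17 of 18 alternatives and lost with the left-out library kept (adjusted p = 0.402, 0.0837 and 0.205). In that comparison 7 of 8 macrophage markers (median 2.29) and 7 of 7 injured tubule markers (median 3.98) were also higher, and their part in these rises was not tested.

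Of 20 kinases, ubiquitin ligases and adaptors that act on ENaC, 5 fell and none rose after ADR in TERT WT/WT mice (median −0.25), namely Wnk1, Mtor, Klhl3, Sgk2 and Ndfip2. Wnk1, a kinase gene of distal salt transport, fell from 377 ± 69.0 to 218 ± 40.8 CPM (−0.80 ± 0.18, adjusted p = 0.00816). Mtor, whose kinase in its second complex activates SGK1, fell from 113 ± 14.2 to 75.5 ± 13.1 CPM (−0.59 ± 0.14, adjusted p = 0.0126). Klhl3, the substrate adaptor for WNK kinases, fell from 52.0 ± 7.72 to 29.1 ± 12.5 CPM (−0.84 ± 0.21, adjusted p = 0.0144). The share called was no higher than the 27.1% over all genes. Alternatives kept the calls of Wnk1 in 16 of 18 settings and of Mtor and Klhl3 in 15 each. All 3 were lost with the left-out library kept (adjusted p = 0.0531, 0.131 and 0.0656) and without TERT WT/WT ADR replicate 2 (0.0535, 0.0797 and 0.0872), and Mtor and Klhl3 also without replicate 3 (just over 0.05, and 0.0638). With TERT KO/KO none of the 20 passed (median 0.06).

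Among the FXYD proteins, small membrane proteins that modulate the Na,K-ATPase, Fxyd5 and Fxyd1 rose after ADR in TERT WT/WT mice. Fxyd5 rose from 28.8 ± 5.96 to 79.5 ± 23.4 CPM (1.46 ± 0.22, adjusted p = 0.00152), and Fxyd1 from 9.60 ± 1.48 to 14.3 ± 2.94 CPM (0.57 ± 0.18, adjusted p = 0.0369). The call of Fxyd5 was kept in all 18 alternatives and that of Fxyd1 in 13. Fxyd1 was lost with the left-out library kept (adjusted p = 0.745), without TERT WT/WT ADR replicate 2 (0.202) and without saline replicate 2, 3 or 4 of that genotype (0.0613 to 0.103). Neither passed after ADR in TERT KO/KO mice. The macrophage and injured tubule markers given above were called in the same comparison.

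Of 10 further genes of corticosteroid receptors, chaperones and enzymes, 3 fell in TERT WT/WT mice (median −0.17) and none passed in TERT KO/KO mice (median −0.09), a share in TERT WT/WT close to the 27.1% over all genes. Nr3c1, the glucocorticoid receptor gene, fell from 93.6 ± 14.6 to 67.2 ± 12.4 CPM (−0.48 ± 0.16, adjusted p = 0.0369). Fkbp4, a receptor co-chaperone gene, fell from 269 ± 10.5 to 184 ± 46.8 CPM (−0.55 ± 0.14, adjusted p = 0.0159), and Ncoa2, a coactivator gene, from 64.9 ± 13.0 to 44.3 ± 4.13 CPM (−0.55 ± 0.16, adjusted p = 0.0236). These calls depended on single libraries. Nr3c1 was called in 10 of 18 alternatives (adjusted p up to 0.385), Ncoa2 in 12 (up to 0.373) and Fkbp4 in 14 (up to 0.101). All 3 were lost with the left-out library kept and without TERT WT/WT ADR replicate 2 (0.18, 0.117 and 0.0987) or replicate 3 (0.112, just over 0.05, and 0.0677), and Nr3c1 and Ncoa2 also without TERT WT/WT saline replicate 3 or 4 (0.0694 to 0.107).

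Of 7 potassium channel genes of the same segments, Kcnj10 (−0.60 ± 0.19, adjusted p = 0.0329) and Kcnj1, which encodes the secretory channel ROMK (−0.53 ± 0.17, adjusted p = 0.0344), fell. Kcnj10 was called in 11 of 18 alternatives (adjusted p up to 0.575) and Kcnj1 in 10 (up to 0.757). Both were lost with the left-out library kept, without TERT WT/WT ADR replicate 2 (0.145 and 0.141) or 3 (0.0634 and 0.0551), and without saline replicate 2, 3 or 4 of that genotype (0.0552 to 0.0976). Kcnmb4 passed as higher, with 0 counts in every TERT WT/WT library after saline and 0.0718 to 0.235 CPM after ADR, too low for a fold to be given. After ADR in TERT KO/KO mice Kcne1 alone of the 7 fell. Markers of connecting and distal convoluted tubule cells moved in the same comparison, with 3 of 8 lower in TERT WT/WT mice (Slc12a3, Calb1 and S100g), as were 4 of 8 intercalated cell markers, 4 of 7 thick ascending limb markers (Kcnj1 is itself in that list) and 1 of 8 principal cell markers, Aqp4. Their part in these changes was not tested.

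Genes that corticosteroid receptors induce in many tissues formed the list with the most calls in TERT KO/KO mice. Of 13 listed, 6 rose after ADR in TERT KO/KO (median 0.65), and 4 rose and 1, Errfi1, fell in TERT WT/WT mice (median 0.0007). Those that rose in both were Fkbp5, Zbtb16, Edn1 and Mt2. Tsc22d3 and Per1, which with Fkbp5 are named here after their values were seen, rose with TERT KO/KO while TERT WT/WT gave no call. The genotypes' responses did not differ beyond the threshold for Tsc22d3 (2.19 ± 0.45, adjusted p = 0.205) nor for Per1 (1.63 ± 0.47, adjusted p = 0.299). Each comparison used its own saline group.

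Tsc22d3 encodes GILZ, a classical glucocorticoid-induced protein. It was at 31.3, 20.9 and 26.2 CPM after saline and 115 and 87.1 CPM after ADR in TERT KO/KO mice, a rise of 1.95 ± 0.34 on the log2 scale (adjusted p = 0.011). TERT WT/WT mice had 28.6, 30.7, 41.4 and 32.6 CPM after saline and 22.4, 16.5 and 46.0 CPM after ADR (−0.24 ± 0.29, adjusted p = 0.576). As for Sgk1, both TERT KO/KO ADR libraries lay above all other 17, while TERT WT/WT ADR replicate 2 was the lowest. The rise in TERT KO/KO mice was lost without TERT KO/KO saline replicate 2 (adjusted p = 0.0562) or replicate 3 (0.0541).

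Per1, a clock gene that also responds to corticosteroids, was at 42.6, 32.2 and 43.8 CPM after saline and 127 and 116 CPM after ADR in TERT KO/KO mice (1.63 ± 0.36, adjusted p = 0.026). It was at 57.2, 42.9, 46.5 and 52.3 CPM and at 38.3, 26.5 and 84.4 CPM in TERT WT/WT mice, where the fitted change was near 0 (adjusted p = 0.999). The rise in TERT KO/KO was lost on leaving out any TERT KO/KO library (adjusted p = 0.065 to 0.0958) and with no filter on low counts (0.0843). Fkbp5, a receptor co-chaperone gene, was at 16.8, 20.5 and 24.6 CPM after saline and 192 and 94.8 CPM after ADR in TERT KO/KO (2.80 ± 0.42, adjusted p = 0.00605). TERT WT/WT mice had 17.8, 23.2, 29.1 and 25.0 CPM and at 36.3, 69.2 and 119.7 CPM (1.66 ± 0.35, adjusted p = 0.00692).

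Zbtb16, a transcription factor gene, was at 2.67, 3.96 and 3.39 CPM after saline and 25.9 and 16.7 CPM after ADR in TERT KO/KO (2.68 ± 0.38, adjusted p = 0.00483), and rose from 1.89 ± 0.41 to 6.72 ± 3.69 CPM in TERT WT/WT mice (1.84 ± 0.33, adjusted p = 0.00319). Edn1, the endothelin gene, rose from 2.49 ± 0.247 to 15.0 ± 11.9 CPM in TERT WT/WT (2.60 ± 0.46, adjusted p = 0.00321) and by 2.31 ± 0.54 on the log2 scale in TERT KO/KO mice (adjusted p = 0.0327). Mt2, a metallothionein gene, rose from 35.0 ± 11.3 to 225 ± 135 CPM in TERT WT/WT (2.69 ± 0.42, adjusted p = 0.002) and by 2.23 ± 0.49 on the log2 scale in TERT KO/KO mice (adjusted p = 0.0265). The TERT KO/KO call of Edn1 was kept in 7 of 18 alternatives and that of Mt2 in 11 of 18. Both calls were lost, among other settings, without replicate 3 of the ADR group. They were also lost on leaving out any saline library of that genotype (adjusted p = 0.0813 to 0.12 and 0.0807 to 0.0918). That of Edn1 was also lost without any TERT WT/WT saline library (0.0509 to 0.0525), and that of Mt2 without TERT KO/KO ADR replicate 1 (0.0532). Both genes were lowest, among i-TERTci and among TERT WT/WT ADR libraries, where the injured tubule markers given above were lowest. After ADR in TERT WT/WT, Edn1 was at 4.24 CPM in replicate 1 and at 13.0 and 27.8 CPM in the others. Mt2 was there at 69.2, 299 and 308 CPM. i-TERTci replicate 2 had Edn1 at 2.98 and Mt2 at 109 CPM, against 7.07 and 16.1 CPM and 153 and 256 CPM in the others. The part of injured tubules in the rises of Edn1 and Mt2 was not tested.

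**Figure D4:**
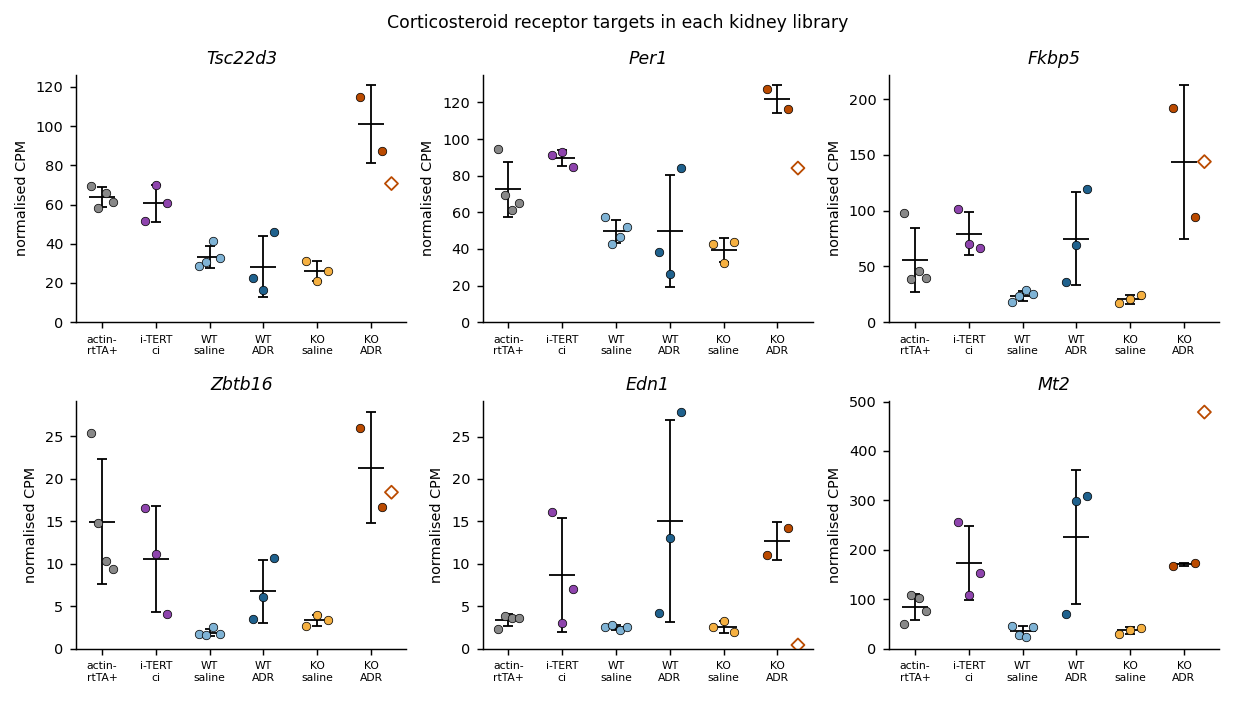
TMM-normalised level in CPM (vertical axis, from 0) of 6 corticosteroid receptor targets in each library, by group. Bars are the mean ± SD. The open diamond is the left-out library, scaled to its own total without TMM normalisation. Tsc22d3 (115 and 87.1 CPM) and Per1 (127 and 116 CPM) are high in the TERT KO/KO ADR libraries, while Fkbp5, Zbtb16, Edn1 and Mt2 are higher after ADR in both genotypes.

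Compared directly between the genotypes after ADR, none of these 13 genes passed in edgeR's test (0 called, list median 0.55), although Tsc22d3 (1.84 ± 0.34, adjusted p = 0.125), Zbtb16 (1.66 ± 0.37, adjusted p = 0.195) and Per1 (1.30 ± 0.36, adjusted p = 0.344) had the same direction as Sgk1. DESeq2 called 4 of the 13, and edgeR 4 without TERT WT/WT ADR replicate 1 and 3 without replicate 3. After saline none passed (median −0.21). In i-TERTci mice 0 of the genes of any of the 6 lists passed.

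The pattern most like that of Sgk1 over the 19 libraries was sought among 14380 genes, as the root mean square (RMS) difference in log2 CPM after each gene's mean within its experiment was subtracted. The 3 nearest were Tsc22d3 (0.236), Polr3e (0.259) and Cdr2 (0.302), where the RMS of the pattern of Sgk1 itself was 0.605. For Prss8, with an RMS of 0.394, they were Acad8 (0.0812), Pepd (0.0836) and Auh (0.0901). The other members varied little, with an RMS from 0.117 for Nedd4l to 0.273 for Nr3c2, and their nearest genes lay at 0.072 to 0.117, among them Caskin2 for Scnn1a, Mrpl19 for Scnn1b, Stxbp5 for Scnn1g, Ube2g1 for Nedd4l, Brms1l for Atp1b1, Sgsm1 for Hsd11b2 and Prkcq for Nr3c2. No member was among the 3 nearest genes of another. The nearest member to Sgk1 was Scnn1g, at 0.573.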

How the data were processed

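Whole-kidney RNA was sequenced as paired-end reads. Per the labels and the study's methods, the authors checked reads with FastQC, trimmed them with Trimmomatic, aligned them to mm10 with STAR and deposited raw counts per gene. The counting tool and strand setting are not given in the sources used here. Of 55471 gene identifiers, 55230 matched GENCODE M21 once versions were dropped.

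Each experiment was fitted with edgeR 4.0.16 in R 4.3.3 (filterByExpr, TMM, quasi-likelihood F test, Benjamini-Hochberg adjustment over all genes tested, threshold 0.05), with all groups of an experiment in 1 fit. The interaction and the difference between experiments were contrasts. Alternatives were median-ratio factors, no filter, DESeq2 1.42.0, only the compared groups, the left-out library kept, a replicate block, and each library left out. Those for list genes were added after the data were seen. On simulated data the test recovered 75% of genes changed 2-fold and 100% of those changed 4-fold for ADR in TERT WT/WT mice, and 9% and 88% for the interaction. The simulation gave every gene the same fixed dispersion and changed only well-counted genes, in a single group. It was not matched to the spread of these libraries, so these shares do not give the power for the members.

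All 9 members were named, with up to 3 genes of smallest p after ADR in TERT WT/WT per pathway list and the 3 nearest genes of each member. Members and lists were chosen with earlier results of these data known. No column of per-sample values was left unused. Some genes of the pathway lists are not reported here.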

Additional observations from a re-analysis of the deposited data

Results flagged for a closer look

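Scnn1a in actin-rtTA+ replicate 1 stood at 238 CPM, while the other 3 libraries of the group stood at 203 to 208 CPM. Its gap to the nearest library, as a share of the group's range, was above Dixon's critical value for 4 samples. Chance alone flags about 1 in 20 such groups, and the cause was not tested.

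The hepatocyte markers summed to 301000 CPM in TERT KO/KO ADR replicate 2, a library that no group mean uses, against at most 406 CPM in the other libraries. In that library Scnn1b stood at 0.188 CPM, Scnn1g at 0.293 CPM and Hsd11b2 at 0.941 CPM, each far under its lowest level elsewhere, while Nr3c2 (11.4 CPM) and Sgk1 (31.2 CPM) were nearer to theirs. Why it differs was not tested.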

How the results depend on the processing

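Across 26 alternative fits, the rise of Sgk1 after ADR in TERT KO/KO mice was lost in 1 of 18 settings and the fall of Hsd11b2 in 14 of 18. The causes were not tested. The numbers of genes called moved as follows. In the i-TERTci comparison they were 0 with median-ratio factors, 23 with no filter and 1990 with DESeq2, and 0 to 4325 on leaving out each library (4325 without i-TERTci replicate 2), with 0 to 1 members. After ADR in TERT WT/WT mice, no filter called 2 members, DESeq2 1 and the replicate block 1, with 0 to 2 on leaving out each library. There the genes called were 894 with the left-out library kept and 1708 to 7810 on leaving out each (lowest without TERT WT/WT ADR replicate 2, highest without replicate 1). After ADR in TERT KO/KO mice, members called were 1 with no filter, 1 with only the groups compared, 0 with the left-out library, 1 with the replicate block and 1 to 3 on leaving out each, and genes called were 2147 with DESeq2, 1710 with only the groups compared, 295 with the left-out library and 177 to 3393 on leaving out each. Between genotypes after saline, 6 genes were called with no filter, 21 with DESeq2, 2 with only the groups compared, 0 with the left-out library and 0 to 2 on leaving out each. After ADR these were 41, 127, 0, 0, with 1 under the replicate block and 0 to 782 on leaving out each, while members were 0 with only the groups compared, 0 with the left-out library, 0 under the block and 0 to 1 on leaving out each. For the interaction, 23 genes were called with no filter, 131 with DESeq2 and 0 to 325 on leaving out each, with 1 member under DESeq2 and 0 to 1 on leaving out each. For the i-TERTci effect minus the ADR effect, they were 4 with no filter, 59 with DESeq2, 0 with the left-out library and 0 to 35 on leaving out each.

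Keeping the left-out library reversed log2 fold changes after ADR in TERT KO/KO mice for Scnn1a (−0.35), Scnn1g (−0.45), Nedd4l (−0.16), Atp1b1 (−0.33) and Nr3c2 (0.075). It did so between genotypes after ADR for Scnn1a (−0.35), Scnn1g (−0.52), Nedd4l (−0.23), Atp1b1 (−0.43), Prss8 (−0.54) and Mt2 (1.23), and in the interaction for Scnn1a (−0.073), Scnn1g (−0.31), Nedd4l (−0.31) and Atp1b1 (−0.13). Deviations of same-numbered libraries from their group means correlated above 0.1 in 9 of 18 pairs (−0.463 to 0.481 over all 18). Subtracting group means ties the deviations of a group to each other, so these correlations cannot show whether same-numbered libraries share a batch. The replicate block reversed, after saline, Scnn1b (−0.011) and Hsd11b2 (−0.050), after ADR between genotypes Nr3c2 (−0.020) and Prss8 (−0.045), in the interaction Nedd4l (−0.0073), and for ADR in TERT WT/WT Per1 (−0.091). It gave Hsd11b2 −0.59 (adjusted p = 0.0959) and Sgk1 between genotypes after ADR 1.88 (0.181). Per1 in TERT WT/WT was also −0.0030 with median-ratio factors and with DESeq2 and −0.0060 with no filter, and Nr3c2 between genotypes after ADR −0.0047 with only the groups compared.

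Leaving out each library turned the sign of small differences. In the i-TERTci comparison the ranges were −0.14 to 0.060 for Scnn1b, −0.14 to 0.017 for Scnn1g, −0.037 to 0.26 for Sgk1, −0.13 to 0.0006 for Nedd4l and −0.11 to 0.078 for Hsd11b2. After ADR in TERT WT/WT they were −0.023 to 0.11 for Scnn1b, −0.79 to 0.043 for Tsc22d3 and −0.62 to 0.31 for Per1 (both lowest without TERT WT/WT ADR replicate 3, adjusted p = 0.0322 and 0.0408), and in TERT KO/KO −0.23 to 0.30 for Scnn1a. Between genotypes after saline they were −0.034 to 0.12 for Scnn1b, −0.088 to 0.062 for Hsd11b2 and −0.012 to 0.15 for Prss8. After ADR they were −0.28 to 0.25 for Nr3c2, −0.23 to 0.31 for Scnn1a, −0.068 to 0.17 for Scnn1g, −0.045 to 0.19 for Nedd4l, −0.28 to 0.30 for Prss8 and −0.69 to 0.56 for Edn1. In the interaction they were −0.11 to 0.11 for Nedd4l, −0.16 to 0.36 for Nr3c2 and −0.35 to 0.24 for Prss8. For the i-TERTci effect minus the ADR effect they were −0.10 to 0.16 for Scnn1a, −0.22 to 0.0010 for Scnn1b, −0.034 to 0.19 for Scnn1g, −0.11 to 0.052 for Atp1b1, −0.093 to 0.16 for Nr3c2 and −0.30 to 0.30 for Prss8.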
